A study of Mus musculus with 7 samples.

Results

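Among the mouse entries that the array names miR-2132 to miR-2146 are 7 that the study listed as changed after ureteral obstruction and that were later dropped from miRBase as likely fragments of ribosomal RNA. They are mmu-miR-2133, mmu-miR-2134, mmu-miR-2138, mmu-miR-2140, mmu-miR-2141, mmu-miR-2145 and mmu-miR-2146. They were matched by name, with or without a version suffix, and make up 7 of the 696 miRNAs on the array. Because the entries were chosen from a list made by the same contrast of labels, their differences between the labels are given as a description, with no test. The list was made by the study from this same experiment and is no independent evidence of a direction.

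A miRNA is a short RNA cut by Dicer from a hairpin precursor, and it guides an Argonaute protein to messenger RNAs that match its seed. Early small RNA sequencing also picked up breakdown products of abundant RNAs, above all ribosomal and transfer RNA, and some of these were entered in miRBase as miRNAs. A probe against such an entry reports short RNA that ends at the matching place, or any RNA that hybridizes there. Ribosomal RNA is made in nearly every cell and forms most of a total RNA extract.

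Total RNA came from kidneys of male C57BL/6 mice aged 9 to 12 weeks, taken at day 28 of a study that compared unilateral ureteral obstruction, in which the left ureter was tied, with a sham operation that left it open. The deposited record calls 4 samples non-treated and 3 treated, with 1 Cy3-labelled sample on each of 7 arrays, all on 1 slide and in 1 scan. Nothing in the labels says which word stands for the obstructed kidneys. The study describes separate mice, 4 in each group, whereas 3 treated samples were available here. The labels number the samples without naming an animal. Whole kidney RNA was measured, so fewer cells of a type and less RNA per cell cannot be told apart.

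The members' own mature sequences were matched for 0 of 7 names in the RefSeq table used here and are not printed. Of the 5 other numbered entries on the array, 3 had one in RefSeq on GRCm38.p6. They are shown because they carry the neighbouring numbers and are still annotated, with the seed, bases 2 to 8 from the 5′ end, in capitals. miR-2136 lies on the plus strand at chr9:104426163-104426183, miR-2137 on the plus strand at chrX:72992113-72992133 and miR-2139 on the minus strand at chr4:139967531-139967554.
miR-2136: cUGGGUGUugacugagaugug
miR-2137: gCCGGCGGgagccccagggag
miR-2139: aGCUGCGCugcuccugguaacugc
No seed was shared among them. G and C made up 52.4%, 85.7% and 62.5% of their bases, in that order. miR-2136 and miR-2139 were not detected on any array, so miR-2137 was the 1 annotated entry of the number series with a signal.

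The arrays differed in total signal between the labels. Averaged over the 186 miRNAs that all arrays detected, the log2 signal was 7.24 ± 0.398 (SD, n = 4) on non-treated arrays and 6.09 ± 0.320 (SD, n = 3) on treated arrays, a difference of -1.16, and 232 to 282 miRNAs were detected on a non-treated array against 193 to 214 on a treated array. Signals were therefore divided by that mean on each array before comparison, which is called scaling here. Spike-in controls added to every sample were lower on treated arrays by only 0.20, while array control probes named hur, whose target is not given in the sources used here, differed by -0.82. Signed differences are treated minus non-treated by the deposited labels, and the study's own signs, given as obstructed over control, run the opposite way for these entries. The reversal is not particular to them. The study's signs are also opposite for miR-192, miR-194, miR-30a, miR-144, miR-451, miR-1939, miR-223 and miR-142-3p, which it listed too.

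After scaling, all 7 entries were higher on the arrays labelled treated, from 1.44-fold for mmu-miR-2133 to 3.55-fold for mmu-miR-2146. The median difference was 1.21 on the log2 scale, against -0.13 over the 236 miRNAs tested. For each entry the lowest treated array lay above the highest non-treated array. Such a separation was common on these arrays: 30.5% of the tested miRNAs did not overlap in this direction and 41.1% in the other. By limma, at a Benjamini-Hochberg adjusted p below 0.01, 61.0% of the tested miRNAs were called, 26.3% higher and 34.7% lower on treated arrays. The members were picked by this contrast, and nothing is read from their count.

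After this scaling the differences fell in 3 steps, which are a description. The steps were less distinct under quantile normalization, as given below. mmu-miR-2146 stood first. Its scaled log2 signal was 7.54, 7.31, 7.21 and 7.32 on non-treated arrays 1 to 4, and 9.16, 9.07 and 9.30 on treated arrays 1, 3 and 4. The means were 7.35 ± 0.137 (SD, n = 4) and 9.18 ± 0.116 (SD, n = 3), which differed by 1.83 with a standard error (SE) of 0.103. A gap of 1.53 separated the nearest arrays of the groups, wider than for any other member.

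The middle step held mmu-miR-2134, mmu-miR-2141 and mmu-miR-2140. Scaled log2 signals of mmu-miR-2134 were 5.83, 5.78, 6.04 and 5.85 on non-treated arrays and 7.26, 6.97 and 7.56 on treated arrays, a difference of 1.39 (SE 0.142). Its treated arrays were the most spread of any member, with an SD of 0.295. For mmu-miR-2141 the arrays read 8.95, 8.64, 8.82 and 8.70 against 10.13, 9.84 and 10.15, a difference of 1.26 (SE 0.115). mmu-miR-2140 gave 5.99, 5.66, 5.87 and 5.75 against 7.08, 6.83 and 7.18, a difference of 1.21 (SE 0.117). In both of these entries treated array 3 was the lowest of its group and non-treated array 1 the highest of its own.

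The smallest differences were those of mmu-miR-2145, mmu-miR-2138 and mmu-miR-2133. mmu-miR-2145, the only member whose name carries no version suffix on the array, read 7.62, 7.43, 7.64 and 7.45 on non-treated arrays and 8.30, 8.09 and 8.40 on treated arrays, a difference of 0.73 (SE 0.104). mmu-miR-2138 read 8.59, 8.44, 8.48 and 8.42 against 8.97, 9.00 and 9.16, a difference of 0.56 (SE 0.0862). For mmu-miR-2133 the values were 6.18, 5.68, 5.88 and 5.68 against 6.34, 6.32 and 6.49, a difference of 0.53 (SE 0.134). The gap between its groups was 0.14, less than the non-treated SD of 0.236, since non-treated array 1 lay close to the treated arrays.

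Neighbours in this order were compared through the log2 ratio of their signals on each array, as a description and without a test. The ratio of mmu-miR-2146 to mmu-miR-2134 shifted by 0.44 between the labels with no overlap of arrays, and that of mmu-miR-2140 to mmu-miR-2145 by 0.49, also with no overlap. The ratios within a step overlapped between the labels. They shifted by 0.12 for mmu-miR-2134 to mmu-miR-2141, 0.051 for mmu-miR-2141 to mmu-miR-2140, 0.17 for mmu-miR-2145 to mmu-miR-2138 and 0.030 for mmu-miR-2138 to mmu-miR-2133. A ratio within an array does not depend on a scaling that multiplies all signals of that array by the same factor. The steps were cut at the widest gaps in the order, so separation across them and overlap within them largely follow from the cut. How often the ratios of other miRNA pairs separate by label was not counted.

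**Figure D1:**
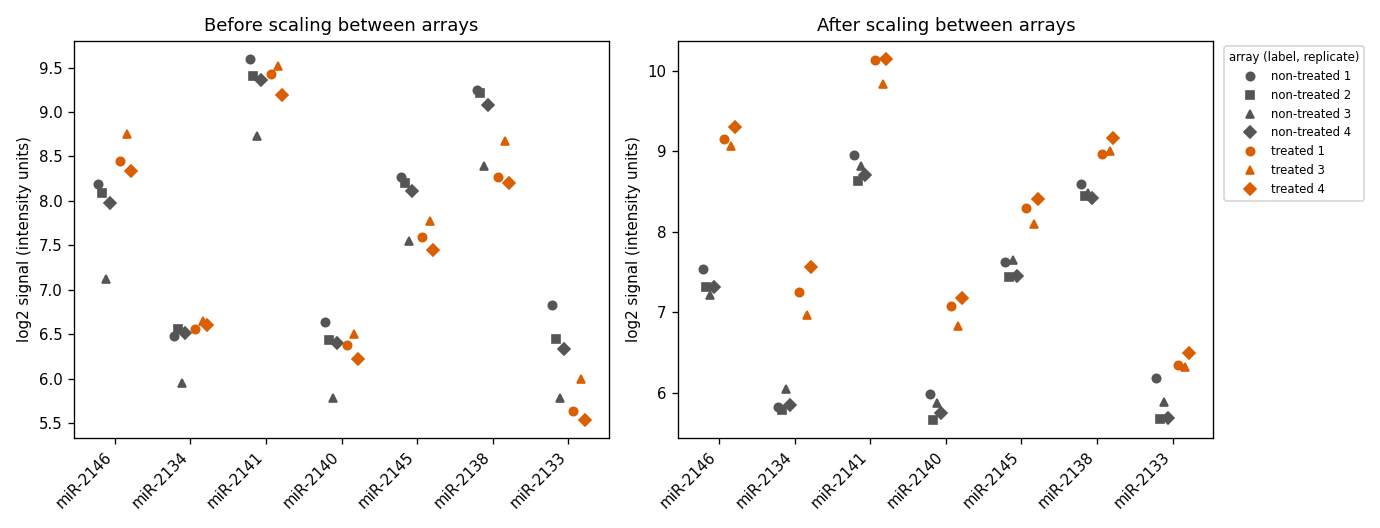
Log2 signal of the 7 entries on each array before scaling (left) and after it (right), ordered by their difference; each point is 1 array, grey for the 4 labelled non-treated and orange for the 3 labelled treated. Before scaling the groups of 5 entries overlap, and after it the treated arrays lie above the non-treated arrays for all 7.

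Without scaling the picture differed. The mean unscaled log2 signal of the 7 members was 7.59 ± 0.379 (SD, n = 4) on non-treated and 7.51 ± 0.168 (SD, n = 3) on treated arrays, a difference of -0.084. The median of the members' unscaled differences was 0.056, whereas that of all tested miRNAs, with low signals raised to the floor, was -1.22. The members made up 1.20% ± 0.0734 (SD, n = 4) of the summed miRNA signal on non-treated arrays and 2.64% ± 0.377 (SD, n = 3) on treated arrays. The share was 1.30%, 1.18%, 1.18% and 1.13% on non-treated arrays 1 to 4, and 2.70%, 2.24% and 2.98% on treated arrays 1, 3 and 4. On each treated array the members' mean unscaled log2 signal, 7.36 to 7.69, lay inside the 7.04 to 7.89 of the non-treated arrays.

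In unscaled intensity units, mmu-miR-2146 read 292, 272, 139 and 251 on non-treated arrays and 351, 430 and 324 on treated arrays. mmu-miR-2134 read 89.1, 93.8, 61.8 and 91.1 against 94.0, 100.3 and 97.2. These 2 were the only members without overlap before scaling, a pattern seen in 5.08% of the tested miRNAs in this direction and 67.8% in the other. Their unscaled differences were 0.67 and 0.23 on the log2 scale. For mmu-miR-2134 the groups only just parted, at 93.8 on non-treated array 2 and 94.0 on treated array 1.

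The unscaled signal of mmu-miR-2141 was 777, 680, 423 and 656 on non-treated arrays and 690, 733 and 586 on treated arrays. That of mmu-miR-2140 was 99.6, 86.5, 54.9 and 84.6 against 83.2, 90.9 and 74.6. In both, treated arrays lay inside the non-treated range, and the differences were 0.11 and 0.056.

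The other members leaned the opposite way before scaling. mmu-miR-2138 read 606, 593, 335 and 540 on non-treated arrays and 308, 409 and 295 on treated arrays, and mmu-miR-2145 read 309, 295, 187 and 276 against 193.7, 218 and 174. mmu-miR-2133 read 114, 87.4, 55.2 and 80.7 against 49.8, 63.7 and 46.4. Their unscaled differences were -0.60, -0.43 and -0.63, and in each of them non-treated array 3, the dimmest array of its group, lay among the treated arrays.

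The direction of the lower step therefore depended on the scaling. Scaled by spike-in controls, mmu-miR-2133, mmu-miR-2138 and mmu-miR-2145 differed by -0.43, -0.40 and -0.23, and by the mean of all miRNAs on the array by -0.35, -0.32 and -0.16. mmu-miR-2146 remained higher under every scaling run, from 0.67 to 2.08, as did mmu-miR-2134 from 0.23 to 1.63, mmu-miR-2141 from 0.11 to 1.51 and mmu-miR-2140 from 0.056 to 1.46. The median of all tested miRNAs moved with the scaling from -1.22 to 0.12, and each member lay above it under each of the 7 scalings plotted. These scalings move the members and that median by nearly the same amount. This is therefore 1 observation, not a separate one for each scaling. With normexp background correction, which is no scaling, the median of all tested miRNAs was 0.29, and mmu-miR-2133, mmu-miR-2145 and mmu-miR-2138 lay at or below it, at 0.29, 0.24 and 0.060. The differences between members did not depend on the 7 scalings plotted, which add the same amount to every miRNA above the floor. Quantile normalization, which was not plotted, changed them and their order. It gave 1.86 for mmu-miR-2146, 1.61 for mmu-miR-2134, 1.37 for mmu-miR-2140 and 1.09 for mmu-miR-2141. For mmu-miR-2145, mmu-miR-2133 and mmu-miR-2138 it gave 0.80, 0.64 and 0.32.

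**Figure D2:**
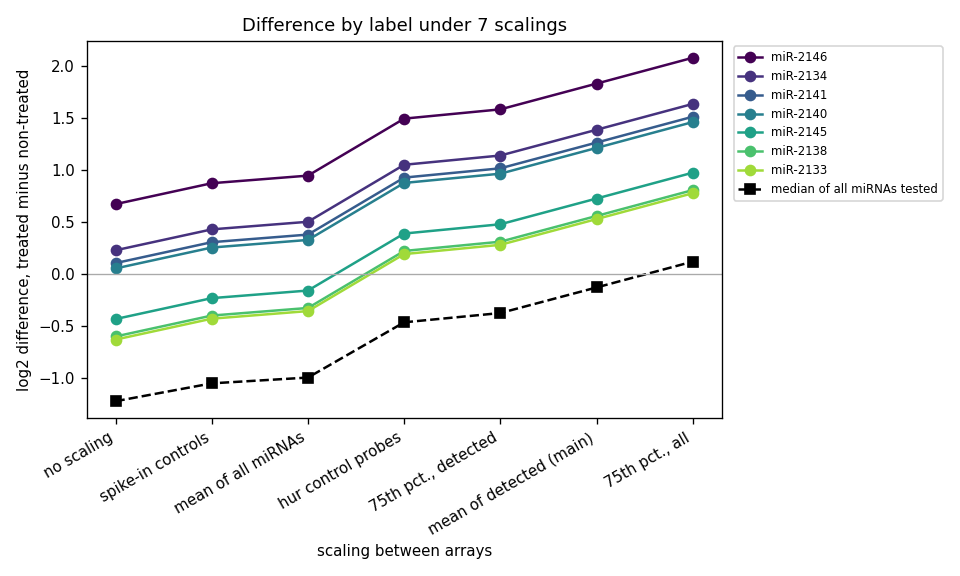
Log2 difference of each entry, treated minus non-treated, under 7 ways of scaling between arrays; coloured lines join the values of 1 entry and the dashed line is the median of all miRNAs tested. The 7 lines run parallel, and those of miR-2145, miR-2138 and miR-2133 lie below 0 under 3 of the scalings.

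The question whether the entries move together was asked of the deviations of each array from the mean of its own group. The study's test also used the spread within groups, so these deviations are not independent of the choice of members. Over the 7 arrays, the 21 pairs of members had Pearson's r of scaled deviations from 0.30 to 0.99, with a median of 0.73. The 17205 pairs among the 186 miRNAs detected on all arrays had a median of 3.1e-05 and quartiles of -0.39 and 0.39. The scaling removes the mean of these same 186 miRNAs on each array, so positive and negative r among them tend to balance by construction. All points of a pair share an array and its scaling, and 7 arrays in 2 groups leave few independent deviations, so these correlations are a description. Unscaled, the median r was 0.95 among members and 0.91 among all pairs.

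The closest pair was mmu-miR-2140 with mmu-miR-2141 at 0.99, followed by mmu-miR-2140 with mmu-miR-2145 at 0.95. mmu-miR-2134 was the most apart, with r of 0.30 to mmu-miR-2146 and 0.31 to mmu-miR-2133. Against the mean of the other 6 members, r was 0.97 for mmu-miR-2140, 0.93 for mmu-miR-2141, 0.92 for mmu-miR-2145, 0.82 for mmu-miR-2138, 0.76 for mmu-miR-2133, 0.67 for mmu-miR-2146 and 0.62 for mmu-miR-2134. All 7 were above their group mean on treated array 4 and below it on treated array 3 and on non-treated arrays 2 and 4. On non-treated array 1 the mean deviation was 0.14, and on non-treated array 3 it was 0.0386.

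The co-movement depended on the signal used. Its median over the 21 pairs was 0.30 with normexp background correction and 0.64 with the deposited value table, which holds 1 spot per probe and, for treated replicate 4, an error estimate. With that table and without treated replicate 4, 2 changes at once, it was 0.011. Leaving out 1 array at a time from the main signals gave 0.64 to 0.85, with 0.64 for treated replicate 4.

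**Figure D3:**
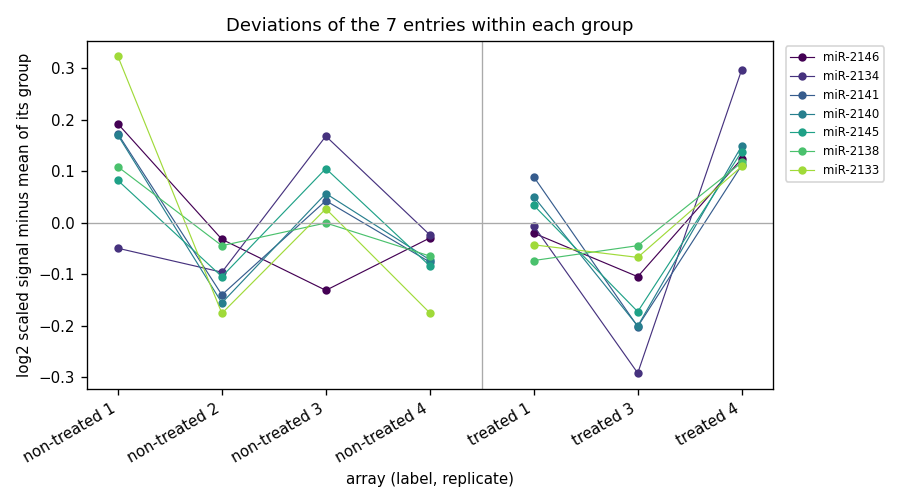
Deviation of each entry's log2 scaled signal from the mean of its own group on each array; 1 colour is 1 entry, and lines join an entry's arrays only for tracing, since replicates have no order. All 7 entries lie below 0 on treated 3 and above 0 on treated 4, and miR-2134 and miR-2146 part from the rest on non-treated 3.

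Of the miRNAs outside the number series, the 5 whose deviations followed the members most were miR-345-5p (r = 0.84), let-7d (0.77), miR-128 (0.76), miR-1939 (0.71) and miR-1897-5p (0.69), over 7 arrays, where the median of the other miRNAs was -0.030. These 5 were picked for the highest r among the miRNAs detected on all arrays, so high values are built in. Whether they exceed what chance gives with 7 arrays was not tested. Between the labels these 5 miRNAs differed unequally by limma: miR-1939 was higher on treated arrays by 2.55 (adjusted p = 5.19e-05) and miR-1897-5p by 0.61 (adjusted p = 0.00822), while let-7d, a member of the let-7 family found in most tissues, differed by 0.14 (adjusted p = 0.116). miR-345-5p and miR-128 differed by 0.29 (adjusted p = 0.0254) and 0.19 (adjusted p = 0.0652).

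Whether the members followed the total signal of the array was examined within groups and between them. Within groups, a change of 1 in an array's mean log2 signal went with a change in unscaled signal of 1.03 for mmu-miR-2146, 0.92 for mmu-miR-2138, 0.86 for mmu-miR-2133, 0.77 for mmu-miR-2141, 0.74 for mmu-miR-2140, 0.72 for mmu-miR-2145 and 0.52 for mmu-miR-2134. The members' median slope was 0.77, against 0.98 for all miRNAs detected on all arrays. Non-treated array 3 lay furthest from its group mean in array signal, at -0.59, and so weighs most in these slopes, whose spread was not estimated. Between the labels the corresponding ratio of each member's difference to the array difference was 0.54 for mmu-miR-2133, 0.52 for mmu-miR-2138, 0.37 for mmu-miR-2145, -0.048 for mmu-miR-2140, -0.093 for mmu-miR-2141, -0.20 for mmu-miR-2134 and -0.58 for mmu-miR-2146. Its median was -0.048 for the members and 1.02 for all. For the members this ratio restates the scaled difference between the labels, by which they were chosen, so it is no separate evidence. Values near 1 over all miRNAs are nearly fixed for the slope and the ratio, since the array signal is the mean of these same miRNAs. As an example, the mean log2 signal of non-treated array 3, 6.65, was nearest to that of treated array 3, 6.42. The mean unscaled log2 signal of the members was 7.04 on non-treated array 3 and 7.69 on treated array 3. This pair of arrays was picked and shows the same difference between the labels, so it adds no evidence.

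**Figure D4:**
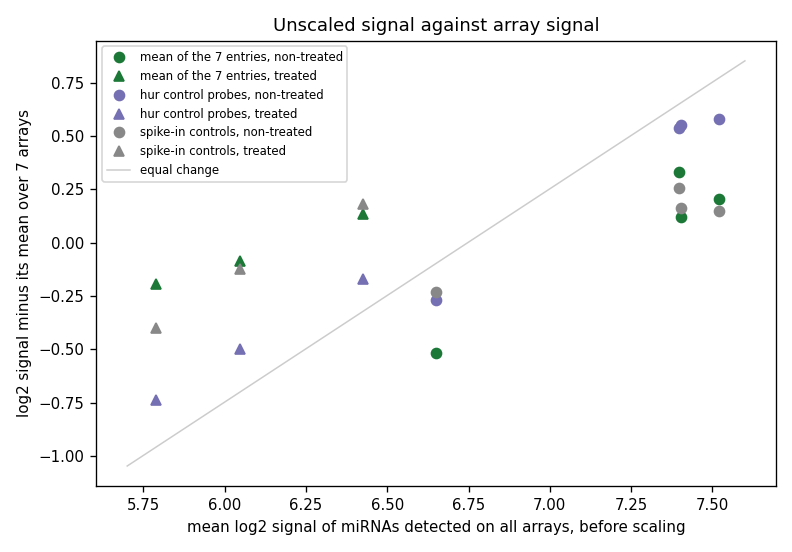
Mean unscaled log2 signal of the 7 entries, of the hur control probes and of the spike-in controls, each minus its mean over the 7 arrays, against the array's mean log2 signal; circles are non-treated and triangles treated arrays, and the grey line marks equal change. The green triangles lie above the line, and the green circle of the dimmest non-treated array lies below it and below all green triangles.

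After scaling, both probes of each member told the same direction. Every member had 2 probes, each printed on 10 spots, and the probe with more signal gave 73.6% to 93.9% of the entry's total. The brighter and the dimmer probe differed between the labels by 1.84 and 1.80 for mmu-miR-2146, 1.27 and 1.26 for mmu-miR-2141, 0.56 and 0.57 for mmu-miR-2138, 1.24 and 1.13 for mmu-miR-2140 and 0.55 and 0.41 for mmu-miR-2133. The probes disagreed in size for mmu-miR-2134, at 1.21 and 1.87, and for mmu-miR-2145, at 0.75 and 0.35. Before scaling, the probes of mmu-miR-2140 went opposite ways. The mean signal of its brighter probe was 63.2 on non-treated and 65.5 on treated arrays, and that of its dimmer probe 18.2 and 17.4. The probes of each other member shared a direction before scaling too, which for mmu-miR-2133, mmu-miR-2138 and mmu-miR-2145 was lower on treated arrays. Spot noise was small beside the spread between arrays: the SE from spots was 0.032 to 0.059 on the log2 scale, and the SD between arrays of a group was 2.22 to 4.06 times as large.

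**Figure D5:**
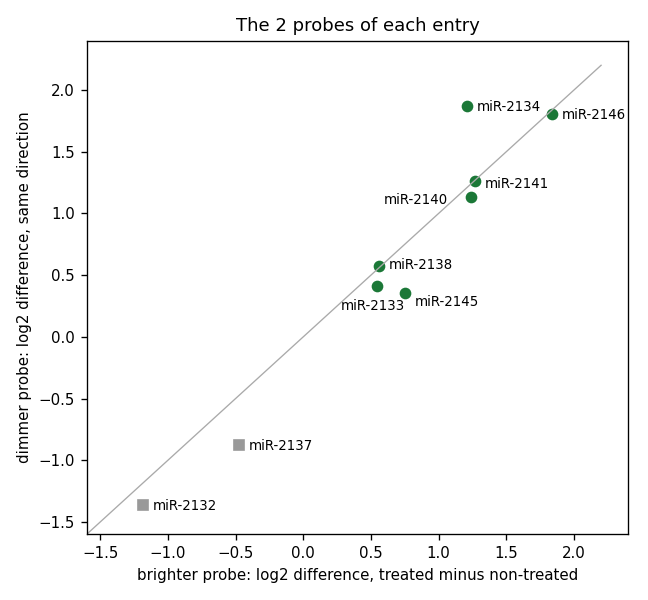
Log2 difference after scaling, treated minus non-treated, of the dimmer probe against that of the brighter probe for the 7 entries (green circles) and for miR-2132 and miR-2137 (grey squares). The line marks equal differences. The other 5 green circles lie close to the line, miR-2134 lies above it and miR-2145 below it.

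The other entries of the number series, which the study's list did not hold, were read from the fit over all miRNAs. miR-2132, which carries the version suffix too, fell on treated arrays: its scaled log2 signal was 6.85, 6.80, 7.26 and 6.597 on non-treated and 5.69, 5.59 and 5.78 on treated arrays, a difference of -1.19 (SE 0.151, adjusted p = 1.25e-04). miR-2135 differed by -0.040 (SE 0.0916, adjusted p = 0.722), with its 3 probes at 0.12, -0.12 and -0.39. miR-2137 differed by -0.57 (SE 0.227, adjusted p = 0.0530), with arrays at 4.63, 3.62, 4.07 and 3.76 against 3.60, 3.45 and 3.31. None of the 3 tested was thus called higher, 1 was called lower and 2 were not past the threshold. Their deviations followed the mean of the members with r of 0.47 for miR-2132, 0.26 for miR-2135 and 0.56 for miR-2137. Both miR-2135 and miR-2137 did pass the threshold, as lower, without scaling and with scaling by spike-in controls, hur probes or the mean of all miRNAs, and miR-2137 also with the 75th percentile of detected miRNAs (adjusted p = 0.00964).

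The version suffix, which 6 of the 7 members share, was also followed in the other entries that carry it. The array marks 14 entries in this way. Of the 8 others, 5 were not tested for lack of signal and 3 were, namely miR-2132, miR-2135 and miR-689, with 1 called lower. miR-689 differed by -0.44 (SE 0.254, adjusted p = 0.156). miR-669a was detected on 3 of 4 non-treated and 0 of 3 treated arrays.

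Entries known as likely fragments of transfer RNA gave another comparison. Of the 3 on the array, miR-1937b differed by 0.023 (SE 0.126, adjusted p = 0.889) and miR-1937c by -0.27 (SE 0.131, adjusted p = 0.105), and miR-720 was higher on treated arrays by 0.39 (SE 0.105, adjusted p = 0.00998). With arrays left out in turn, miR-720 kept its call in 1 of 7 fits, that without treated array 4, and with spike-in scaling it was called lower, at -0.57 (adjusted p = 0.00584). miR-1937b and miR-1937c were called lower without scaling and with spike-in controls or the mean of all miRNAs, and miR-1937c also with hur probes and the 75th percentile of detected miRNAs. The scaled deviations of miR-1937b, miR-1937c and miR-720 ran against the mean of the members, with r of -0.46, -0.58 and -0.64.

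Cell and tissue markers differed between the same labels, though not all in 1 direction. The kidney list was detected on all arrays for 6 of 6 miRNAs, with a summed log2 signal of 11.67 to 11.90 on non-treated and 12.81 to 12.86 on treated arrays. That sum weighs bright miRNAs most and does not describe each miRNA of the list. By limma miR-192, miR-194 and miR-30a rose by 3.24, 2.92 and 1.16 (adjusted p = 2.50e-06, 6.17e-07 and 3.78e-06). miR-204 fell by 0.56 (adjusted p = 6.22e-04), and miR-10a and miR-10b differed by -0.019 and 0.071 (adjusted p = 0.878 and 0.532). Red blood cell markers, 2 of the 3 listed being on the array and detected throughout, ranged from 10.08 to 11.19 and from 12.17 to 12.32. White blood cell markers, 3 of 3 detected throughout, ranged from 9.99 to 10.33 and from 7.95 to 8.05. miR-122 of liver and miR-124 of neurons were detected on 0 arrays, miR-133a of striated muscle on 3 and miR-1 on 7. The part of tissue composition, total signal and RNA quality in the members' differences was not tested.

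The rows of the slide held both labels. Within row 1, with non-treated 1 and 2 and treated 1, the members' median difference was 1.26, and within row 2, with the other 4 arrays, it was 1.19. All 7 were higher on treated arrays within each row, from 0.41 for mmu-miR-2133 to 1.73 for mmu-miR-2146 in row 1 and from 0.62 to 1.92 for the same entries in row 2. That direction had to follow, since each treated array lay above each non-treated array for every member. Only the sizes could differ between the rows. Without non-treated array 3 the median was 1.21.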

How the data were processed

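Arrays were 1-colour Agilent mouse miRNA arrays. Per spot, the files deposited by the authors, made with Agilent Feature Extraction 10.7.3.1, give a linear intensity with background subtracted. The deposited detection and outlier marks, other flags of 0 or 1, were used as filters. A deposited value table, an unscaled intensity of 1 spot per probe on 6 arrays and the error estimate of that intensity for treated replicate 4, served as an alternative.

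Here spots without outlier marks were averaged per probe, summed per miRNA, scaled by the average log2 signal over 186 miRNAs seen on all arrays, floored at 2.49 and taken as log2. If every array of either group detected it, a miRNA was tested, 236 in all, with limma 3.58.1 in R 4.3.3, at a Benjamini-Hochberg adjusted p below 0.01, without covariates. Steps were tested on simulated data. No spot was saturated, and depth in reads does not apply: the number of arrays limits precision. The lowest correlation between replicates of a group was 0.990, and replicates differed by at least 1.34 times their spot noise.

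The members and lists were chosen with earlier results of these data known. Named are the members, the other entries from miR-2132 to miR-2147, suffixed or transfer RNA-linked entries past the threshold, and the 5 miRNAs most like the members. miR-689 and miR-669a, and the transfer RNA-linked entries not past the threshold, were named after their values were seen. Alternatives covered scaling, signal, filter, floor, test, threshold, replicate block and each array left out. Those added after seeing the data were the row of the slide, hur scaling and the deposited table without treated replicate 4. The paper's methods and the labels differ on the RNA extraction kit, and human samples were not analysed here.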

Additional observations from a re-analysis of the deposited data

Results flagged for a closer look

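On non-treated array 3 the unscaled signal of mmu-miR-2134 was 61.8, far below the 89.1 to 93.8 of the other 3 non-treated arrays. The same array had a mean log2 signal of 6.65 over the miRNAs detected on all arrays, where the others had 7.40 to 7.52, and a mean log2 signal of the hur control probes of 12.63, where the others had 13.44 to 13.48. These were 3 of 25 sets of values checked for a sample far from the rest of its group, and chance gives about 5% of such sets. All 3 are signals of that same array before scaling and are not independent, so their number cannot be set against that share. After scaling, mmu-miR-2134 on that array read 6.04 against 5.78 to 5.85.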

How the results depend on the processing

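The members' median difference, 1.21, was 0.97 with scaling by the 75th percentile of detected miRNAs, 1.46 with that of all miRNAs, 0.33 with their mean, 0.056 without scaling, 0.26 with spike-in controls, 0.88 with hur probes, 1.02 with the deposited table and 0.54 with normexp, where the median of all tested miRNAs was 0.29. It was 1.16 to 1.31 when 1 array was left out. mmu-miR-2133, mmu-miR-2138 and mmu-miR-2145 changed sign to -0.35, -0.32 and -0.16 with the mean of all miRNAs, -0.63, -0.60 and -0.43 without scaling, and -0.43, -0.40 and -0.23 with spike-in controls; such a change of scaling adds 1 amount to every miRNA. The other 4 members kept their direction in all alternatives run.

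Of the tested miRNAs 62 were called higher and 82 lower. Counts in either direction were 61 with the deposited table, 94 without its treated replicate 4, 84 with Bonferroni adjustment and 126 to 157 with 1 array left out. The split of higher and lower was 50 and 104 with the 75th percentile of detected miRNAs, 76 and 61 with that of all miRNAs, 25 and 173 with the mean of all, 8 and 167 without scaling, 18 and 171 with spike-in controls, 50 and 125 with hur probes and 105 and 52 with normexp. Suffixed entries outside the members gave 1 call, 3 with the mean of all miRNAs, without scaling or with spike-in controls, 2 with hur probes or no detection filter, 0 with Bonferroni adjustment and 1 with each array left out. The transfer RNA-linked entries gave 1 call, 2 with the mean of all miRNAs or without scaling, 3 with spike-in controls and 0 with quantile normalization, the deposited table with or without treated replicate 4, outlier spots kept, no detection filter, the methods' t-test, Bonferroni adjustment, the replicate block or the row block, and 0 to 1 with 1 array left out. The cause of these changes was not tested.

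Same-numbered arrays deviated together with r of -0.00057, -0.022 and 0.19, so the numbers were not taken as pairs. With the replicate block, 126 miRNAs were called and the members' median was 1.16. All 7 members were detected on all arrays, above the floor of 1.32 in log2 signal.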

Other observations

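The deposited value table had a median over probes of 0.445, 0.532, 0.470 and 0.346 for non-treated replicates 1 to 4 and of 0.322, 0.276 and 1.001 for treated replicates 1, 3 and 4. It held the first spot's processed signal for all 1937 probes on 6 arrays, within a relative tolerance of 1e-05, and the error estimate of that signal for treated replicate 4.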
